A study of Rattus norvegicus with 21 samples.

Results

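Astrocytes taken from the forebrain of Sprague Dawley rats at postnatal day 7 (P7) and grown for 7 days in 10% foetal calf serum were compared with astrocytes of the same age lysed without culture, across all genes on the array. The comparison used 3 arrays of serum P7 cultures and 3 arrays of fresh P7 cells, 6 of the 21 arrays of the study, chosen by their titles. Another group, HBEGF P7 cultures (3 arrays), held cells of the same isolation grown for 7 days without serum in medium with the growth factor HBEGF at 5 ng/ml. It served as the test of what differed between cultures of the 2 media. All these cells had been isolated by immunopanning on the integrin ITGB5, so each group is a panned population and not tissue. The labels call the arrays of a group biological replicates and say nothing of litters or dissections. For the HBEGF P7 cultures the labels conflict, p1 in one field and P7 in their titles and sources, and the titles were used. Serum P7 cultures and fresh P7 cells differ at once in the days of culture, in serum and in the age of the cells at lysis. They differ too in the time since isolation, as fresh cells were lysed after panning with no days of culture between. These differences cannot be told apart in that comparison.

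Astrocytes of the intact brain contact synapses and blood vessels, take up glutamate and potassium, and lie behind the blood-brain barrier, where they meet little serum. Serum carries growth factors, lysophospholipids such as lysophosphatidic acid, lipoproteins and hormones. Lysophospholipids act through RhoA on actin, and actin in turn sets the activity of serum response factor (SRF) with its MRTF partners and of YAP with TEAD. Growth on serum is the older way of keeping rodent astrocytes, while HBEGF acts through the receptor EGFR, which astrocytes carry.

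Values are log2 intensities of Affymetrix rat genome array probe sets, 1 probe set for each of 14217 genes, and the median of all log2 values was 7.11. Levels are compared between arrays for 1 gene, never between genes. A gene is said to have risen or fallen, or to be called, where the limma fit gave a Benjamini-Hochberg adjusted p under 0.05 over all 31042 probe sets together with a log2 change of at least 1, which is 2-fold. Changes are the log2 level in serum P7 cultures minus that in fresh P7 cells unless HBEGF is named, SE is the moderated standard error and SD is over 3 arrays. Arrays of a group correlated at a Spearman rho of 0.974 to 0.994 in serum P7 cultures, 0.963 to 0.977 in HBEGF P7 cultures and 0.983 to 0.989 in fresh P7 cells. The third serum array stood apart within its group, with a rho of 0.974 and 0.979 to the others, which correlated at 0.994 with each other. Without it, 1242 genes rose and 1262 fell, against 1296 and 1285 with all arrays.

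Of the 14217 genes, 1296 (9.12%) rose and 1285 (9.04%) fell in serum P7 cultures, 18.2% in all, and the median change of all genes was 0.07. The changes were large: 475 of the rises and 432 of the falls were of at least 2 log2, and 63 rises and 68 falls were of at least 4 log2. A further 3334 genes had an adjusted p under 0.05 and a change under the fold limit. A gene list whose share of rises lay near 9.12%, or of falls near 9.04%, did not stand apart from all genes in that direction. The arrays of the groups did not overlap for 54.7% of all genes, and for 2554 of the 2581 called ones. The median SE of a change was 0.17. Where a gene list below had 0 members called in a direction, the number with an unadjusted limma p under 0.05 in that direction follows as "unadjusted".

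**Figure D1:**
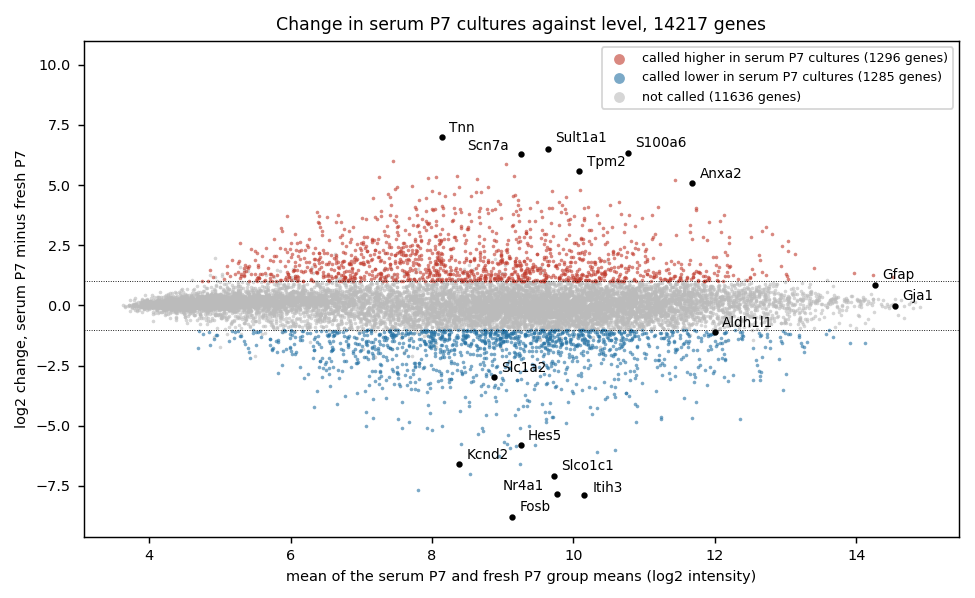
Each point is 1 of 14217 genes, with the mean of its serum P7 and fresh P7 levels (log2 intensity) on the horizontal axis and its log2 change, serum P7 minus fresh P7, on the vertical axis. Red points are the 1296 genes called higher, blue points the 1285 called lower, and the dotted lines mark 1 log2. Fosb (-8.77) and Tnn (7.00) mark the extremes, while Gfap (0.85) and Gja1 (-0.01) lie between the dotted lines at high levels.

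In the contrast with HBEGF P7 cultures, 686 genes (4.83%) were called higher and 636 (4.47%) lower in serum P7 cultures, 9.3% in all. Of these, 189 rises and 110 falls were of at least 2 log2. A fit on the 6 arrays of both kinds of culture alone, called the 2-group fit below, gave 400 higher and 362 lower, and 97 and 23 of the members of all gene lists, against 161 and 61 in the fit on all groups. List counts against HBEGF P7 cultures are therefore given below with that of the 2-group fit where it differs by over 1.5 times. Of 32 such list counts that came to 1 or 2 genes, 23 moved by over 1.5 times with 1 array left out, and counts of 1 or 2 are not given. Larger counts of some lists are given here only, with the 2-group fit in brackets. Lower were 6 neuron markers (4), 5 lipid handling genes (2), 5 axon guidance genes (2) and 4 synapse-acting factors (1). Higher were 5 synapse-acting factors (3), 5 chaperones (3), 5 insulin-like growth factor genes (1) and 4 p53 targets (4). Also higher were 4 mural cell markers (2), 3 clock genes (2) and 3 fatty acid synthesis genes (2). The arrays of both groups did not overlap for 37.9% of all genes. This contrast keeps isolation and days of culture alike and differs in the medium. It is the test of the difference between both kinds of culture, and a gene called against fresh P7 cells alone is not thereby shown to differ between the media.

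Of 30 measured astrocyte markers, 2 lay below the median of all values in serum P7 cultures, 2 in HBEGF P7 cultures and 0 in fresh P7 cells. Gfap, the glial filament protein, read 14.76, 14.68 and 14.62 in serum P7 cultures, against 14.04, 13.67 and 13.79 in fresh P7 cells. It was high on all 9 arrays, and its change of 0.85 ± 0.28 (SE; adjusted p = 0.0256) lay under the fold limit. Gja1, connexin 43 of astrocyte gap junctions, read 14.40, 14.49 and 14.75 in serum P7 cultures, against 14.55, 14.56 and 14.54 in fresh P7 cells, with the fresh arrays inside the range of the serum arrays and a change of -0.01 (95% interval -0.21 to 0.20). Aqp4, the water channel of astrocyte endfeet, read 14.15, 14.20 and 13.99 on the serum arrays, against 14.43, 14.36 and 14.40 on the fresh arrays, slightly lower in serum without overlap. Its change was not called, with an interval from -0.80 to 0.23. Slc1a3, the glutamate transporter GLAST, was at 13.75 ± 0.41 in serum P7 cultures and 14.72 ± 0.08 in fresh P7 cells (SD, n = 3 each), a change of -0.97 just under the fold limit. S100b, a calcium-binding protein of astrocytes, changed by -0.31 against fresh P7 cells, but it was lower than in HBEGF P7 cultures by a log2 change of -1.16 ± 0.20 (SE; adjusted p = 0.000567), a call that was lost without the third serum array. Nes and Vim, filament proteins of immature and cultured astrocytes, parted: Nes was at 10.76 ± 0.43 in serum P7 cultures and 10.82 ± 0.47 in fresh P7 cells (SD, n = 3 each), and Vim rose by 1.17.

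Another part of the astrocyte genes fell. Slc1a2, the glutamate transporter GLT-1 that appears as astrocytes mature, read 7.53, 7.47 and 7.16 in serum P7 cultures, 7.53, 7.19 and 6.49 in HBEGF P7 cultures and 10.47, 10.51 and 10.12 in fresh P7 cells. All serum arrays lay below all fresh arrays, and the change against fresh P7 cells was -2.98 ± 0.20 (SE; adjusted p = 6.55e-09). Aldh1l1, a folate enzyme used as an astrocyte marker, read 11.80, 11.17 and 11.36 in serum P7 cultures, against 12.38, 12.53 and 12.76 in fresh P7 cells. Its change of -1.12 was close to the fold limit, and at 0.98 in size it fell under that limit without the second serum array. Itgb5, the protein the cells were panned on, read 11.49, 11.49 and 10.25 on the serum arrays, against 11.86, 12.14 and 12.34 on the fresh arrays. Its change of -1.03 ± 0.32 (SE; adjusted p = 0.0184) was not called without the third serum array, without the third fresh array or in a fit on the serum and fresh arrays alone. Of the astrocyte markers, 11 fell and 1 rose, with a median change of -0.63; larger falls were Cldn10 (-4.65), Cbs (-2.88) and Fgfr3 (-2.25), a claudin, an enzyme of hydrogen sulphide production and a growth factor receptor. The member that rose, Htra1, a secreted protease, was not called without any 1 of 4 arrays. Compared with HBEGF P7 cultures, 3 astrocyte markers were higher (5 without the third serum array) and 4 lower (2 in the 2-group fit).

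**Figure D2:**
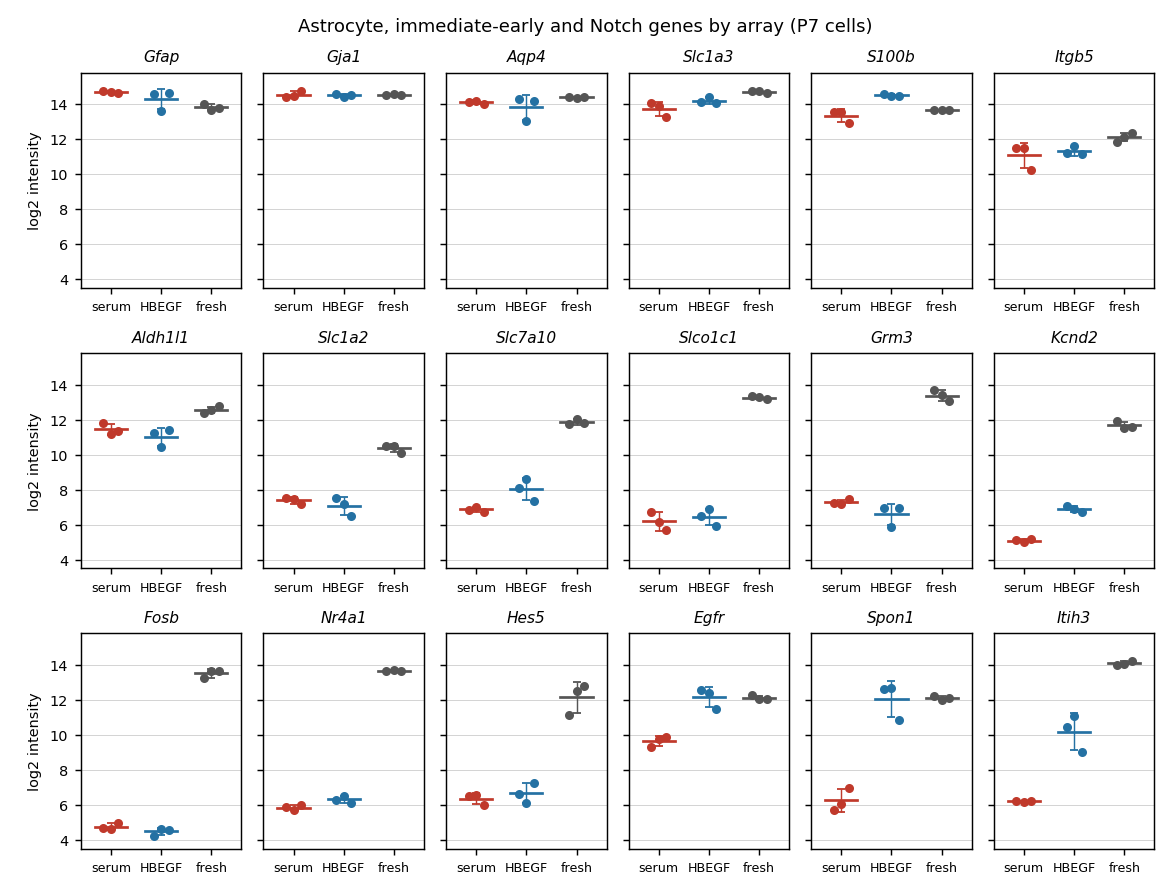
Log2 intensity of 18 genes described in the text, in serum P7, HBEGF P7 and fresh P7 arrays from left to right. Points are arrays, bars the group mean and error bars the SD of 3 arrays. Gfap and Gja1 stay near the top of their panels in all groups, while Fosb reads 4.68, 4.61 and 4.97 in serum P7 cultures, against 13.23, 13.67 and 13.67 in fresh P7 cells.

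Membrane transporters that astrocytes use for transmitters, ions and hormones fell in large part. Of 23 measured genes of the transport list, 13 fell and 1 rose, with a median change of -1.69. Slco1c1, a carrier of thyroid hormone, read 6.73, 6.16 and 5.68 in serum P7 cultures, 6.51, 6.88 and 5.93 in HBEGF P7 cultures and 13.33, 13.27 and 13.19 in fresh P7 cells. Its serum arrays lay below the median of all values and far below the fresh arrays, a change of -7.07 ± 0.28 (SE; adjusted p = 1.64e-11). Slc7a10, the transporter Asc-1 of small neutral amino acids, read 6.86, 7.01 and 6.75 on the serum arrays, against 11.76, 12.04 and 11.81 on the fresh arrays. It too had no overlap, with a change of -5.00. Other falls were those of the citrate carrier Slc13a5 (-4.52), the GABA transporter GAT-3 encoded by Slc6a11 (-3.35) and the glycine transporter Slc6a9 (-3.27). Kcnk1, a potassium channel, was the member that rose (1.79). Glul, the enzyme that makes glutamine from glutamate, was at 13.71 ± 0.27 in serum P7 cultures and 13.89 ± 0.21 in fresh P7 cells (SD, n = 3 each) and was not called.

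Of 27 measured transmitter receptors, 13 fell and 1 rose, with a median change of -1.43. Grm3, the metabotropic glutamate receptor of mature astrocytes, read 7.24, 7.20 and 7.44 in serum P7 cultures, 6.95, 5.87 and 6.94 in HBEGF P7 cultures and 13.69, 13.40 and 13.04 in fresh P7 cells. Both kinds of culture lay below the fresh arrays, and the change in serum P7 cultures was -6.08 ± 0.33 (SE; adjusted p = 6.79e-10). Grin2c, an NMDA receptor subunit, fell by 4.72, the GABA-B receptor subunit Gabbr2 by 4.65, the GABA-A receptor subunit Gabra2 by 4.47 and the cannabinoid receptor Cnr1 by 4.20 on the log2 scale. Adra1b, an adrenergic receptor, rose by 1.44. Compared with HBEGF P7 cultures, 8 receptors were lower, 5 without the third serum array and 4 without the first HBEGF array or in the 2-group fit. Kcnd2, the pore of a rapidly inactivating potassium channel, was in no list but among the largest falls, at 5.11, 4.99 and 5.18 on the serum arrays, against 11.91, 11.54 and 11.60 on the fresh arrays.

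The 15 largest falls held further secreted, adhesion and binding proteins. Itih3, a heavy chain that is bound to hyaluronan in the matrix, read 6.25, 6.15 and 6.21 in serum P7 cultures, 10.47, 11.06 and 9.01 in HBEGF P7 cultures and 13.97, 14.07 and 14.24 in fresh P7 cells. The fresh arrays were highest, the HBEGF arrays lay between, and the serum arrays were lowest, with changes of -7.89 against fresh P7 cells and -3.98 against HBEGF P7 cultures. Spon1, the secreted protein F-spondin, read 5.74, 6.07 and 6.97 in serum P7 cultures, 12.63, 12.68 and 10.85 in HBEGF P7 cultures and 12.24, 11.99 and 12.14 in fresh P7 cells. Here the HBEGF arrays lay near the fresh ones and the serum arrays far below both, with changes of -5.86 ± 0.49 (SE; adjusted p = 1.11e-07) against fresh P7 cells and -5.79 ± 0.49 (SE; adjusted p = 1.03e-06) against HBEGF P7 cultures. Rlbp1, a retinaldehyde-binding protein, changed by -6.58 and -4.37 in the same order, Olfm3, an olfactomedin, by -6.25 and -4.38, and Ntm, the adhesion molecule neurotrimin, by -5.93 and -3.39. Slc35d3 (-7.66), from a family of nucleotide sugar transporters, and Dipk1c (-6.99) completed this group.

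Immediate-early genes encode transcription factors and signalling proteins that are switched on for a short time after a stimulus. Of 31 measured, 27 fell and 1 rose, with a median change of -3.43. Fosb, a partner in AP-1, read 4.68, 4.61 and 4.97 in serum P7 cultures, 4.25, 4.65 and 4.58 in HBEGF P7 cultures and 13.23, 13.67 and 13.67 in fresh P7 cells. The fresh arrays were high and both kinds of culture were low without overlap, and the change of -8.77 ± 0.15 (SE; adjusted p = 2.12e-16), or 437-fold, was the largest fall of all genes. Nr4a1, an orphan nuclear receptor, read 5.87, 5.69 and 6.01 on the serum arrays, against 13.68, 13.72 and 13.64 on the fresh arrays. Its relatives Nr4a2 and Nr4a3 changed by -6.02 and -5.73, and Arc, a synaptic plasticity gene, by -5.66. Among members chosen after their values were seen, Fos changed by -4.72, Egr1 by -3.51, Egr2 by -4.90 and the phosphatase gene Dusp1 by -2.71. Dusp2, another phosphatase, was the member that rose (1.31), and without the second serum array its change was 0.99 and under the fold limit. Egr3 and Ier3 changed by 0.19 and 0.18 and were not called. Against HBEGF P7 cultures, 4 of the list were higher. In HBEGF P7 cultures, 28 of the list (90.3%) were lower than in fresh P7 cells. Of all 14217 genes, 1463 were called in either direction in that contrast. The part of the isolation of the cells in these falls was not tested.

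Many immediate-early genes and actin genes share the CArG box, the site that SRF binds, and promoters were read for it because both groups of genes moved and in opposite directions. Promoter sequences from 250 bases before to 50 after each start, from RefSeq on the build GRCr8, matched 11733 of the genes tested, and both strands were searched. The CArG box was in 1.35% of these promoters, in 1.36% of those of risen genes and in 1.62% of those of fallen genes. It was in 4 of 20 promoters of the immediate-early list (20.0%), all 4 of genes that fell (Egr1, Egr2, Klf6 and Zfp36). As 18 of these 20 promoters were of fallen genes, that direction says little about the site. It was in 7 of 32 promoters of the SRF-linked actin list (21.9%), of which 3 rose, 1 fell and 3 were not called. The stretches below are 80 bases long and end at position -46 relative to the start, 5′ to 3′ on the gene's strand, with CArG boxes in capitals. They are a selection with a box in this stretch from both sides: Acta1, Fhl2 and Cnn2 rose, and Srf, Egr1 and Egr2 fell. Being selected, they cannot test whether the site went with a direction. Not printed are Actg1, Fhl1 and Lima1, which hold a box and were not called, and Klf6 and Zfp36, which fell. Acta1 lies at chr19:68784240-68784319 on the minus strand, Fhl2 at chr9:52954586-52954665 (minus), Cnn2 at chr7:10370358-10370437 (minus), Srf at chr9:21923951-21924030 (plus), Egr1 at chr18:26736953-26737032 (plus) and Egr2 at chr20:21054487-21054566 (minus).
Acta1: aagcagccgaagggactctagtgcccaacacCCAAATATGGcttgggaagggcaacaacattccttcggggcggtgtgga
Fhl2: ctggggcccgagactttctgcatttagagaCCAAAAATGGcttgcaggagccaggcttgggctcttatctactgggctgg
Cnn2: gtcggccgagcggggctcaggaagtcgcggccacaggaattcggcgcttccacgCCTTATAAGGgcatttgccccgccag
Srf: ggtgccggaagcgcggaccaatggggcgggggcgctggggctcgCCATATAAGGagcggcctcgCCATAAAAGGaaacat
Egr1: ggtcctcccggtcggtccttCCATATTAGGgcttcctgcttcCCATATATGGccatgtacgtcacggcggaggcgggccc
Egr2: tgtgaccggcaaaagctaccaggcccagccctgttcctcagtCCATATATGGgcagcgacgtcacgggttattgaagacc
Srf and Egr1 each hold a pair of boxes in this stretch and the others 1 box. A match is a run of letters, and binding was not measured.

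Genes of Notch signalling and of progenitors were read as 1 list. Notch receptors act through RBPJ on the Hes and Hey repressors, which keep neural progenitors and young glia from becoming neurons. Of 33 measured members, 14 fell and 0 rose (unadjusted 1; 1 in a fit on the serum and fresh arrays alone), with a median change of -0.78. Hes5 read 6.51, 6.57 and 5.99 in serum P7 cultures, 6.62, 6.12 and 7.26 in HBEGF P7 cultures and 11.15, 12.51 and 12.80 in fresh P7 cells. All serum arrays lay below all fresh arrays, and the change was -5.80 ± 0.52 (SE; adjusted p = 2.15e-07). Nrarp, a feedback inhibitor of Notch, changed by -5.80, Hey2 by -3.82 and Hes1 by -3.16. Sox3, a factor of neural progenitors, changed by -3.81 against fresh P7 cells and by -3.64 against HBEGF P7 cultures. Sox2 changed by -0.98 (limma adjusted p = 0.0184), just under the fold limit, and was not called. Another probe set of Sox2 met both limits, with a change of -1.65 (limma adjusted p = 0.00957). Its remaining probe sets changed by -0.4 and -0.11 and did not. Id3, a repressor that responds to BMP, changed by 1.05 (limma adjusted p = 0.307) and was not called. In the contrast with HBEGF P7 cultures, 6 members were lower (3 in the 2-group fit).

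The promoters of the Notch list were read for an RBPJ site, GTGGGAA on both strands, a motif that was chosen after values were seen. It was in 6.28% of the promoters of genes tested, in 5.95% of those of risen genes and in 6.57% of those of fallen genes. In this list it was in 4 of 29 (13.8%): Hes1, Hes5, Hey2 and Dll1. The first 3 of these genes fell, and their promoters are shown from position -130 to -51 with the site in capitals. Being selected, they cannot test whether the site went with a direction. Hes5 lies at chr5:170804447-170804526 on the plus strand, Hes1 at chr11:84213096-84213175 (minus) and Hey2 at chr1:28640970-28641049 (plus).
Hes5: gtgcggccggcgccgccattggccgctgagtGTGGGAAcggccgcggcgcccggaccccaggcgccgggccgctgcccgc
Hes1: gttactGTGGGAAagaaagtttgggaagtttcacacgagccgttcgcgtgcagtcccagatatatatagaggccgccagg
Hey2: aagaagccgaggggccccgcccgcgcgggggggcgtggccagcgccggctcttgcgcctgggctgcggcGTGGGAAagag
Hes5 holds another copy further from its start, outside the stretch printed.

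The labels name HBEGF for one culture medium and not for the serum medium, so genes of the EGFR and MAPK pathway were read in all groups. Egfr, the receptor of HBEGF, read 9.32, 9.76 and 9.89 in serum P7 cultures, 12.58, 12.42 and 11.51 in HBEGF P7 cultures and 12.27, 12.03 and 12.03 in fresh P7 cells. The serum arrays lay below both other groups, which overlapped each other, with changes of -2.45 ± 0.26 (SE; adjusted p = 1.5e-06) against fresh P7 cells and -2.51 ± 0.26 (SE; adjusted p = 7.24e-06) against HBEGF P7 cultures. Hbegf itself changed by -0.06 (95% interval -1.23 to 1.10) and was not called. Of 23 measured pathway and feedback genes, 9 fell (39.1%) and 2 rose (8.7%, against 9.12% of all genes), with a median change of -0.65. Areg, another EGFR ligand, changed by -5.11, the phosphatase Dusp5 by -3.34, the ETS factor Etv4 by -3.32, the EGFR inhibitor Lrig1 by -2.97 and Spry2, an inhibitor of receptor kinases, by -2.56. The feedback inhibitor Errfi1 (1.48) and the receptor Il1rl1 (2.47) rose. Compared with HBEGF P7 cultures, 3 were lower, 1 without the second HBEGF array or in the 2-group fit and 5 without the third HBEGF array.

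Extracellular matrix genes held the largest rise of all. Tnn, a tenascin of bone and stem cell niches, read 12.60, 11.69 and 10.61 in serum P7 cultures, 4.42, 4.4 and 4.22 in HBEGF P7 cultures and 4.84, 4.75 and 4.31 in fresh P7 cells. Both other groups lay well below the median of all values, and the serum arrays were high and spread over about 2 log2, a change of 7.00 ± 0.34 (SE; adjusted p = 1.77e-10) or 128-fold. Of 67 measured members of the matrix list, 39 rose (58.2%) and 8 fell (11.9%, against 9.04% of all genes), with a median change of 1.60. Col8a1, a short-chain collagen, read 12.13, 12.52 and 11.57 on the serum arrays, against 8.17, 7.39 and 6.41 on the fresh arrays. Its groups did not overlap, and the change was 4.75 ± 0.44 (SE; adjusted p = 2.96e-07). The crosslinking enzymes Loxl2 (4.94) and Lox (4.29), the elastic fibre protein Fbln5 (4.54), osteopontin encoded by Spp1 (4.17) and thrombospondin 2 encoded by Thbs2 (4.0) rose as well. Of genes chosen after their values were seen, Col1a1 and Col3a1 of fibrillar collagens changed by 2.93 and 3.27, Col4a1 of basement membranes by 2.19 and fibronectin, Fn1, by 3.07.

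The matrix genes did not all move one way. Of 18 collagen chains, 13 rose and 0 fell (unadjusted 0), with a median change of 2.5. Of 7 laminin chains, 2 rose and 1 fell, with a median of 0.77. Of 6 genes of the hyaluronan-based matrix of brain, the lecticans, their link protein and a hyaluronan synthase, 0 rose (unadjusted 1) and 4 fell, with a median of -2.59. These subsets were drawn after the values were seen. Hapln1, the link protein, read 5.46, 5.37 and 5.94 in serum P7 cultures, against 9.19, 9.12 and 8.71 in fresh P7 cells. Its groups did not overlap, and the change was -3.41 ± 0.30 (SE; adjusted p = 1.51e-07). Brevican (Bcan, -2.78), the hyaluronan synthase Has2 (-2.85) and Agrn (-2.94), the heparan sulphate proteoglycan agrin, fell too. Tnc, tenascin C of developing and injured tissue, read 11.83, 11.26 and 9.86 in serum P7 cultures, 8.57, 7.35 and 10.59 in HBEGF P7 cultures and 14.03, 14.18 and 14.02 in fresh P7 cells. The serum arrays lay below all fresh ones, a change of -3.09. Their mean was above that of the HBEGF arrays by 2.15, a call that was lost in the 2-group fit and without any 1 of 4 arrays. Relative to HBEGF P7 cultures, 40 matrix genes were higher (25 in the 2-group fit) and 0 lower (unadjusted 2).

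**Figure D3:**
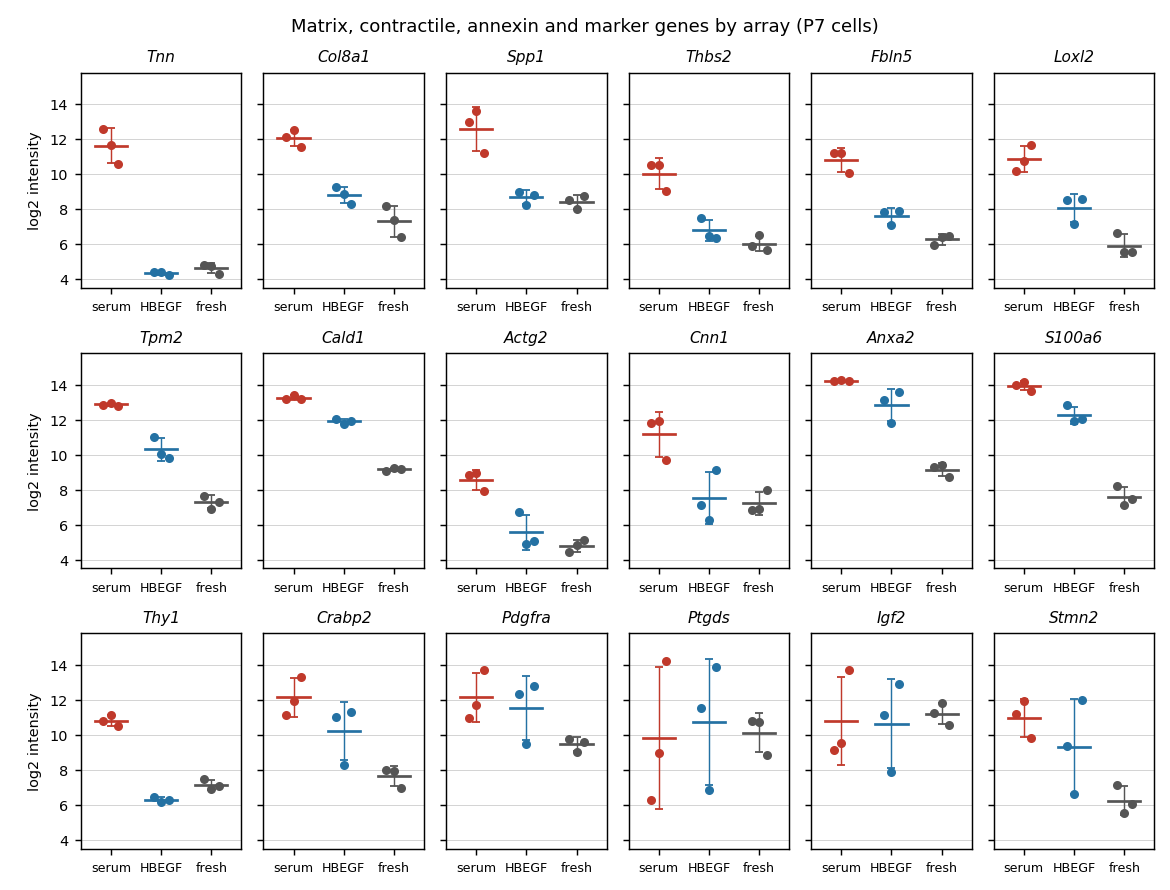
Log2 intensity of 18 genes of matrix, actin, annexin and other groups, in serum P7, HBEGF P7 and fresh P7 arrays from left to right. Points are arrays, bars the group mean and error bars the SD of 3 arrays. Tnn reads 12.60, 11.69 and 10.61 in serum P7 cultures, against 4.42, 4.4 and 4.22 in HBEGF P7 cultures and 4.84, 4.75 and 4.31 in fresh P7 cells, and the third serum array stands apart for Ptgds and Igf2.

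Genes that act on the matrix and bind cells to it came next. Of 27 matrix proteases and inhibitors, 10 rose and 4 fell, a count of falls that was 2 without the third serum array. The metalloproteases Mmp19 and Mmp2 changed by 3.26 and 2.17, cathepsin K (Ctsk) by 3.11 and the inhibitor Timp2 by 2.24, while the membrane metalloprotease Mmp15 changed by -2.73 and Timp4 by -1.91. Of 23 integrin and adhesion genes, 8 rose (34.8%, against 9.12% of all genes) and 2 fell (8.7%, against 9.04%). Those that rose included caveolin 1 (Cav1, 3.62), the integrin subunits Itga1 (2.47) and Itga8 (2.26) and paxillin (Pxn, 2.20). Those that fell were Itga7 (-1.96), a laminin-binding subunit, and Itgb5, described above. Itgb1, the subunit that most integrins share, changed by 0.19 and was not called. Relative to HBEGF P7 cultures, 8 of the protease genes were higher, 4 without the second HBEGF array or in the 2-group fit. Of the adhesion genes, 6 were higher and 0 lower (unadjusted 0).

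More than 20 actin and contractile genes rose. Of 37 measured genes of the SRF-linked list, 21 rose and 1 fell, with a median change of 1.32. Tpm2, a tropomyosin that lies along actin filaments, read 12.86, 12.96 and 12.79 in serum P7 cultures, 11.02, 10.05 and 9.82 in HBEGF P7 cultures and 7.66, 6.92 and 7.31 in fresh P7 cells. The serum arrays were highest, and the change against fresh P7 cells was 5.57 ± 0.36 (SE; adjusted p = 5.14e-09). Cald1, caldesmon, read 13.15, 13.40 and 13.17 on the serum arrays, against 9.06, 9.22 and 9.18 on the fresh arrays, again without overlap. Calponin 1 (Cnn1) changed by 3.93, smooth muscle gamma-actin (Actg2) by 3.75, and Fhl2, a LIM-domain partner of SRF, by 3.59. Of the genes whose promoters are printed above and that were chosen after their values were seen, Acta1, the actin of skeletal muscle, changed by 3.28 and calponin 2 (Cnn2) by 1.04, a call that was lost without any 1 of 4 arrays. Srf itself was the member that fell, at 10.15, 9.77 and 9.74 on the serum arrays, against 12.10, 12.53 and 12.73 on the fresh arrays, a change of -2.57 ± 0.19 (SE; adjusted p = 2.66e-08). Actg1, a cytoplasmic actin, and Cnn3 changed by 0.07 and 0.13 and were not called. Against HBEGF P7 cultures, 14 members were higher (9 in the 2-group fit) and 0 lower (unadjusted 0).

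Of 23 measured targets of YAP and TEAD, 8 rose (34.8%, against 9.12% of all genes) and 2 fell (8.7%, against 9.04%). Myoferlin (Myof, 4.65), the ectonucleotidase Nt5e (3.49) and connective tissue growth factor (Ccn2, 1.64) rose, whereas Ccn1 (-3.17), a matricellular protein, and Fjx1 (-3.21) fell. Amotl2, a feedback target, changed by -0.15 and was not called. In the contrast with HBEGF P7 cultures, 7 were higher.

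Annexins bind membranes in the presence of calcium, and several pair with S100 proteins. Of 22 measured, 11 rose and 0 fell (unadjusted 1; 1 fell without the first or the second serum array), with a median change of 1.20. S100a6, calcyclin, read 14, 14.17 and 13.65 in serum P7 cultures, 12.81, 11.91 and 12.02 in HBEGF P7 cultures and 8.18, 7.14 and 7.45 in fresh P7 cells. Both kinds of culture lay above the fresh arrays, and the change of serum P7 cultures was 6.35 ± 0.26 (SE; adjusted p = 2.36e-11). Anxa2 read 14.21, 14.25 and 14.19 on the serum arrays, against 9.31, 9.43 and 8.70 on the fresh arrays, also without overlap. S100a11 changed by 5.22, Anxa4 by 4.06 and Anxa1 by 3.49. S100a13 (-0.34) and S100a16 (-0.90) were not called. Compared with HBEGF P7 cultures, 6 members were higher, 3 without the second HBEGF array and 2 in the 2-group fit, and 3 were lower. Among intermediate filaments, Krt19, a keratin of simple epithelia, read 9.24, 8.52 and 11.22 in serum P7 cultures, 5.09, 4.59 and 4.92 in HBEGF P7 cultures and 6.65, 5.84 and 5.26 in fresh P7 cells. All serum arrays lay above all others, with changes of 3.75 against fresh P7 cells and 4.79 against HBEGF P7 cultures. Krt8, its partner, changed by 1.75 against fresh P7 cells but by -1.92 against HBEGF P7 cultures, a call that was lost in the 2-group fit. Desmin, Des, changed by 1.5 and 1.78 in the same order.

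Genes linked to reactive astrocytes, the state of astrocytes after injury or inflammation, were read next. Of 34 measured, 17 rose (50%, against 9.12% of all genes) and 3 fell (8.82%, against 9.04%), with a median change of 1.26. Lcn2, lipocalin 2, an iron-siderophore carrier, read 9.90, 9.67 and 8.48 in serum P7 cultures, 7.40, 5.57 and 9.44 in HBEGF P7 cultures and 5.82, 5.25 and 5.78 in fresh P7 cells. Its serum arrays lay above its fresh arrays, a change of 3.73 ± 0.64 (SE; adjusted p = 0.00019). Serpina3n, a protease inhibitor, changed by 3.70 and ceruloplasmin, Cp, by 3.30. Stat3 (-1.36), the factor that drives part of this response, and its inhibitor Socs3 (-1.48) fell, as did B3gnt5 (-3.18), an enzyme of glycolipid synthesis. Gfap, as given above, and Timp1 (0.12) were not called. Relative to HBEGF P7 cultures, 10 were higher (5 in the 2-group fit).

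Interferon and antigen presentation genes rose in 13 of 30 cases with 0 falls (unadjusted 1) and a median change of 0.99. Psmb8, a subunit of the immunoproteasome, read 10.33, 10.20 and 10.72 on the serum arrays, against 7.97, 6.95 and 6.99 on the fresh arrays. The groups did not overlap, and the change was 3.11 ± 0.47 (SE; adjusted p = 5.46e-05). Irf7, a factor of the interferon response, changed by 2.75, the antiviral genes Ifit2, Bst2 and Oas1a by 2.64, 2.49 and 2.11, while B2m, the light chain of class I molecules, changed by -0.01 and was not called. Of 26 chemokines and cytokines, 7 fell (26.9%) and 2 rose (7.69%, against 9.12% of all genes). The count of rises was 4 without the third serum array. Cxcl2 changed by -3.74, Cxcl1 by -3.28, Ccl4 by -3.32, Ccl3 by -3.15 and Il1b by -1.65, while Il18 (2.09) and Cxcl16 (2.07) rose. Ccl2, a chemokine for monocytes, read 11.71, 11.48 and 8.51 on the serum arrays, against 12.20, 10.18 and 10.09 on the fresh arrays. The third serum array was the low one there, and the gene was not called. Of 18 complement genes, 3 rose (5 in a fit on the serum and fresh arrays alone), among them the proteases C1r (2.95) and C1s (2.5), and 1 fell (5.56%), C1qa (-2.23), which is made by microglia. The C1qa call was lost without the first fresh or the second serum array.

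Over 10 genes of cholesterol synthesis fell. Astrocytes make cholesterol for the brain, and the pathway is turned down through SREBP2 when cells take up sterols. Of 21 measured, 12 fell and 1 rose, with a median change of -1.18. Idi1, an early enzyme of the isoprenoid steps, read 12.29, 12.44 and 12.12 in serum P7 cultures, 12.62, 12.31 and 12.23 in HBEGF P7 cultures and 14.26, 14.18 and 14.25 in fresh P7 cells. Both kinds of culture lay below the fresh arrays, and the change of serum P7 cultures was -1.95 ± 0.19 (SE; adjusted p = 4.7e-07). Hsd17b7 (-2.03) and Dhcr7 (-1.56) of the later steps, the sterol sensor partner Insig1 (-1.72) and the sterol carrier Stard4 (-1.69) fell, and Ebp, a sterol isomerase, rose (1.41). Against HBEGF P7 cultures, 0 were lower (unadjusted 2). Fatty acid synthase (Fasn) changed by -1.39, and Thrsp, a regulator of lipid synthesis, by 3.75 against fresh P7 cells and by 4.69 against HBEGF P7 cultures. Of 22 lipid handling genes, 6 fell (27.3%, against 9.04% of all genes) and 3 rose (13.6%, against 9.12%). Apoe, the main lipoprotein of astrocytes, read 13.11, 13.30 and 13.63 on the serum arrays, against 15, 14.88 and 14.83 on the fresh arrays. Its groups did not overlap, and the change was -1.55 ± 0.12 (SE; adjusted p = 5.78e-08). Apoc1 changed by -4.02, and Apod by 3.55, a call that was lost without the third serum array.

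Glutathione enzymes conjugate reactive compounds for export. Of 32 antioxidant and glutathione genes, 12 rose and 0 fell (unadjusted 1), with a median change of 0.81. Gstm2, a glutathione transferase, read 11.89, 11.99 and 11.63 in serum P7 cultures, 9.06, 6.77 and 9.66 in HBEGF P7 cultures and 6.45, 6.82 and 6.15 in fresh P7 cells. All serum arrays lay above all others, the second HBEGF array lay within the fresh range, and the change against fresh P7 cells was 5.36 ± 0.50 (SE; adjusted p = 3.24e-07). Other rises were Gsta1 (3.87), Mgst1 (3.12) and heme oxygenase 1 (Hmox1, 2.41). Gstm2 and Gsta1 belong to families of near-identical genes whose probes may not tell members apart. Also among the 15 largest rises were Sult1a1 (6.51), a sulfotransferase of phenols, Akr1b8 (5.39), an aldo-keto reductase, and Mgst2 (5.30). In the contrast with HBEGF P7 cultures, 4 members of the list were higher, 2 without the second serum array or in the 2-group fit. The integrated stress response follows a shortage of amino acids or misfolded proteins. Of its 28 genes, 11 fell (39.3%) and 4 rose (14.3%, against 9.12% of all genes). Chac1 (-2.41), Ddit3 (-1.82) and Herpud1 (-1.76) fell, and Nupr1 (4.39) and Pck2 (1.52) rose.

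Chaperones moved in both directions. Of 19 measured, 5 rose and 4 fell. The small heat shock protein Hspb1 read 14.53, 14.29 and 14.06 in serum P7 cultures, 9.48, 7.46 and 10.40 in HBEGF P7 cultures and 11.61, 11.11 and 11.27 in fresh P7 cells. The serum arrays were highest and the HBEGF arrays lowest, with changes of 2.96 against fresh P7 cells and 5.18 ± 0.55 (SE; adjusted p = 8.99e-06) against HBEGF P7 cultures. Hspb8 (2.25) and Cryab (1.88), also small heat shock proteins, rose. Hspa1a, the inducible HSP70, whose probes cannot be told from its near-identical copy, changed by -4.85, and Hspa5, the chaperone of the endoplasmic reticulum, by -1.55. Among p53 targets, 4 of 17 rose (23.5%, against 9.12% of all genes) and 2 fell (11.8%, against 9.04%). The death receptor Fas (4.14) and the cell cycle inhibitor Cdkn1a (1.43) rose, and Gdf15 (-2.90) and Plk2 (-2.03) fell.

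Few cell cycle genes were called. Of 36 replication and G1/S genes, 2 rose and 0 fell (unadjusted 7; 1 without the second fresh array), and of 42 mitosis and G2/M genes, 0 rose (unadjusted 1) and 1 fell, against 9.12% and 9.04% of all genes. Cdk1, the kinase that drives mitosis, read 11.52, 11.63 and 11.23 in serum P7 cultures, against 11.09, 11.06 and 11.55 in fresh P7 cells. The arrays overlapped, and the interval of the change ran from -0.49 to 0.93. Pcna, the replication clamp, changed by -0.57 and was not called. The members called, Ccnd1 (1.29), a G1 cyclin, and the mitotic motor Kif11 (-1.08), were each lost without any 1 of 5 arrays, and Tyms, of thymidylate synthesis, changed by 1.21. The HBEGF arrays differed among themselves in these genes: the mean log2 level of the G1/S list was 9.53, 9.65 and 9.58 on the serum arrays, against 9.24, 10.6 and 10.16 on the HBEGF arrays, and that of the G2/M list 9.96, 10.13 and 9.89 on the serum arrays, against 8.95, 10.89 and 10.35 on the HBEGF arrays. The first HBEGF array was the lowest of these for both lists and the second the highest. Compared with HBEGF P7 cultures, 4 G1/S genes were lower, but 10 were without the first HBEGF array, and 0 without the second HBEGF array or in the 2-group fit. Of the G2/M genes, 0 were higher (unadjusted 0) and 0 lower (unadjusted 0), but 6 were lower without the first HBEGF array. The site TTTGAA, known as CHR in mitotic promoters, was in 25 of 36 promoters of the G2/M list (69.4%) and in 12.3% of the promoters of all genes tested, searched on both strands.

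Genes of the circadian clock fell in 12 of 19 cases and rose in 1, with a median change of -1.36. Bhlhe40, a repressor, read 7.64, 7.77 and 6.45 in serum P7 cultures, 7.22, 8.14 and 7.16 in HBEGF P7 cultures and 10.26, 10.73 and 11.44 in fresh P7 cells. The serum and fresh arrays did not overlap, and the change was -3.52 ± 0.44 (SE; adjusted p = 7.74e-06). Nfil3 (-3.21), Nr1d1 (-2.66), Per3 (-2.57) and Cry2 (-2.38) fell, as did Per1 (-1.74), which was chosen after its values were seen. Npas2 rose (1.26), and Clock (0.25) and Dbp (-0.57) were not called. The labels used here give no time of day of lysis.

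Secreted growth factors and their binding proteins were read as well. Of 29 TGF-beta and BMP genes, 7 rose (24.1%) and 2 fell (6.9%, against 9.04% of all genes), a count of falls that was 4 without the second or without the third serum array. Ltbp2, a latent TGF-beta binding relative, changed by 3.92, the ligands Bmp6 and Bmp4 by 3.84 and 2.73, and Tgfb3 by 2.27, while Id4, a repressor of differentiation, changed by -2.21. Relative to HBEGF P7 cultures, 10 were higher (6 in the 2-group fit). Of 15 insulin-like growth factor genes, 6 rose (40.0%), among them the binding proteins Igfbp6 (3.42), Igfbp3 (3.27) and Igfbp7 (2.45). In this list 1 gene fell (6.67%), Igfbp5 (-2.59). Without the third serum array, 4 rose and 2 fell. Among 24 factors that act on synapses, 6 rose and 6 fell. Thbs2 (4.0), Wnt5a (2.22) and glypican 4 (Gpc4, 1.55) rose, and neuroligin 1 (Nlgn1, -3.26) and Thbs4 (-2.72) fell. Among 31 axon guidance genes, 8 rose, led by Sema3c (4.10) and Sema3e (3.87), and 8 fell, led by the receptor Ephb1 (-3.36).

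Phagocytosis and energy genes had no common direction. Of 21 phagocytosis genes, 3 rose and 4 fell. Mfge8, a bridge between dying cells and integrins, changed by -2.83 and Lrp1, a scavenger and lipoprotein receptor, by -1.86. Gas6, a ligand of the TAM receptors, rose by 3.13 on the probe set used, but another of its probe sets was called lower with a change of -1.25, so its direction is uncertain. Of 27 glycolysis genes, 4 rose (14.8%, against 9.12% of all genes) and 3 fell (11.1%, against 9.04%). The glucose transporter Slc2a3 (2.30) and Ldha (1.23) rose, and Pdk4 (-3.51), a brake on pyruvate use, fell.

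**Figure D4:**
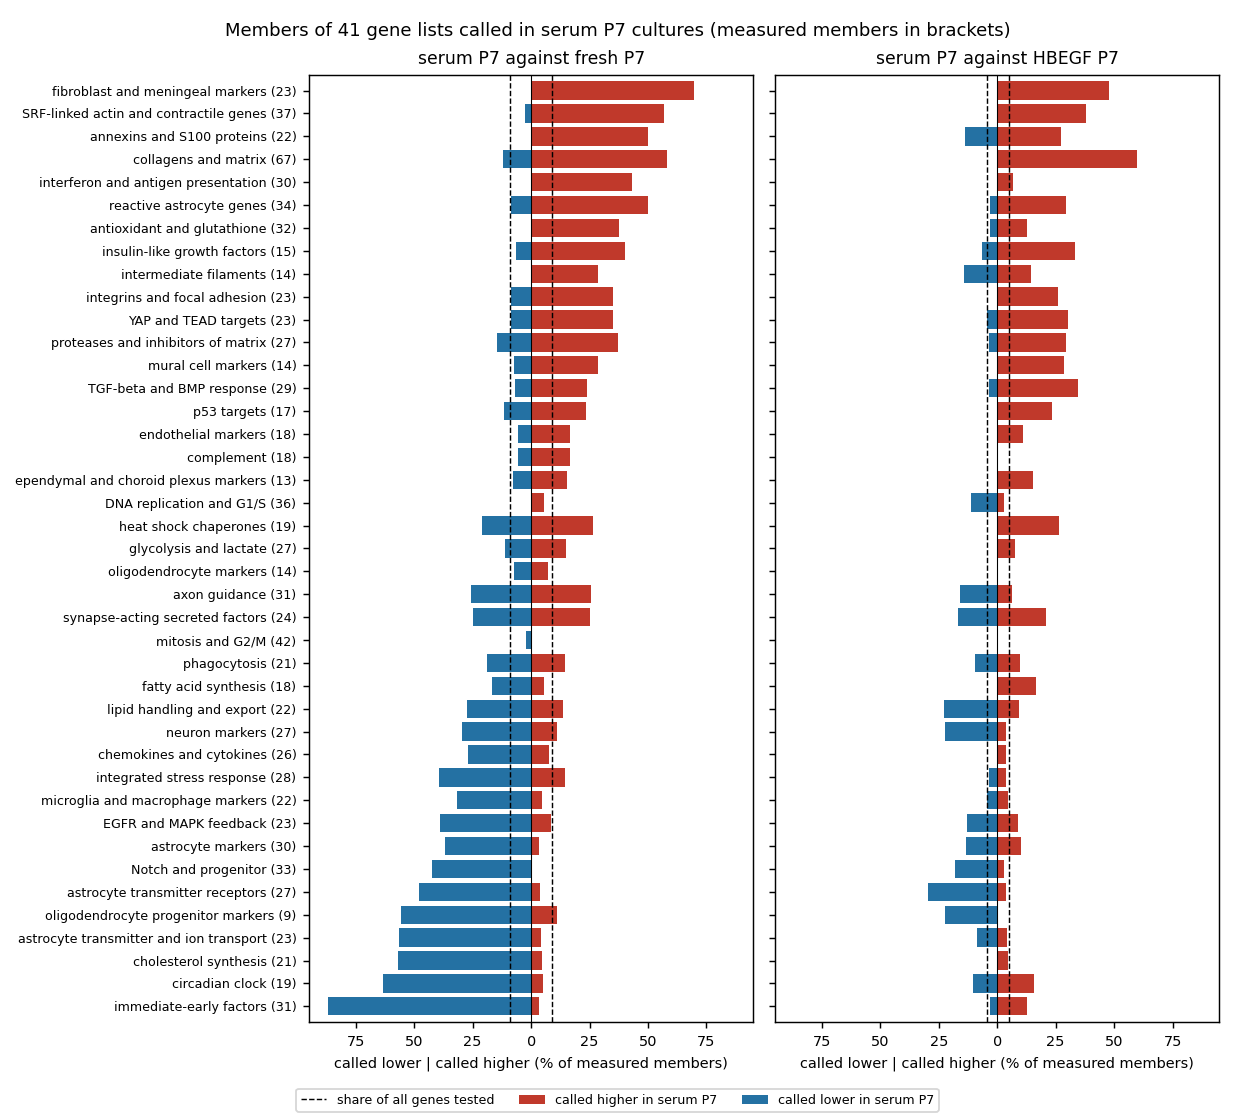
Share of the measured members of each of 41 gene lists that were called lower (bars to the left, blue) or higher (bars to the right, red) in serum P7 cultures, against fresh P7 cells in the left panel and against HBEGF P7 cultures in the right panel. Dashed lines mark the share of all genes tested (9.04% lower and 9.12% higher on the left, 4.47% and 4.83% on the right), and the number in brackets is the members measured. Immediate-early factors (87.1% lower) and fibroblast and meningeal markers (69.6% higher) stand at the ends of the left panel.

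Markers of other cell types were read next to these results, since panned cells and their cultures can hold other cells. In RNA from a population, fewer cells of a type and less RNA per cell cannot be told apart. Of 23 fibroblast and meningeal markers, 16 rose and 0 fell (unadjusted 0), with a median change of 2.68, and 14 rose without the third serum array. Relative to HBEGF P7 cultures, 11 were higher, 8 without the third serum array and 5 in the 2-group fit, and 0 lower (unadjusted 0). Their mean log2 level was 10.28, 10.75 and 12.09 on the serum arrays, 10.08, 8.38 and 10.62 on the HBEGF arrays and 9.15, 8.87 and 8.35 on the fresh arrays. The third serum array was the highest of the 9, and the second HBEGF array was lower than all others except the third fresh array. The summed intensity of the list ran from 98551 to 195070 in serum P7 cultures, 26441 to 81346 in HBEGF P7 cultures and 13675 to 26024 in fresh P7 cells, and 1, 5 and 4 members lay below the median of all values in these groups. The list shares genes with the matrix list, and its part in the matrix, actin and annexin results was not tested.

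Single fibroblast and meningeal genes differed in how they ran over the serum arrays. Crabp2, a retinoic acid carrier of meninges, read 11.16, 11.95 and 13.33 in serum P7 cultures, 11.05, 8.30 and 11.31 in HBEGF P7 cultures and 7.98, 7.96 and 6.97 in fresh P7 cells. All serum arrays lay above all fresh arrays, a change of 4.51 ± 0.62 (SE; adjusted p = 2.34e-05). Thy1, a surface protein of fibroblasts and of neurons, changed by 3.65 against fresh P7 cells and by 4.50 against HBEGF P7 cultures. The matrix proteins fibromodulin (Fmod, 4.04), Mgp (3.96) and Ogn (3.38) rose. Ptgds, a prostaglandin synthase of meninges, read 6.26, 8.96 and 14.25 in serum P7 cultures, against 10.82, 10.75 and 8.83 in fresh P7 cells. The third serum array was more than 5 log2 above the second, and the gene was not called. Igf2, a growth factor of meninges and vessels, read 9.15, 9.54 and 13.69 on the serum arrays, against 11.28, 11.82 and 10.58 on the fresh arrays, with the third serum array high in the same way. Pdgfra, a receptor of both oligodendrocyte progenitors and fibroblasts, read 10.99, 11.72 and 13.73 on the serum arrays, against 9.79, 9.04 and 9.58 on the fresh arrays and rose by 2.68.

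**Figure D5:**
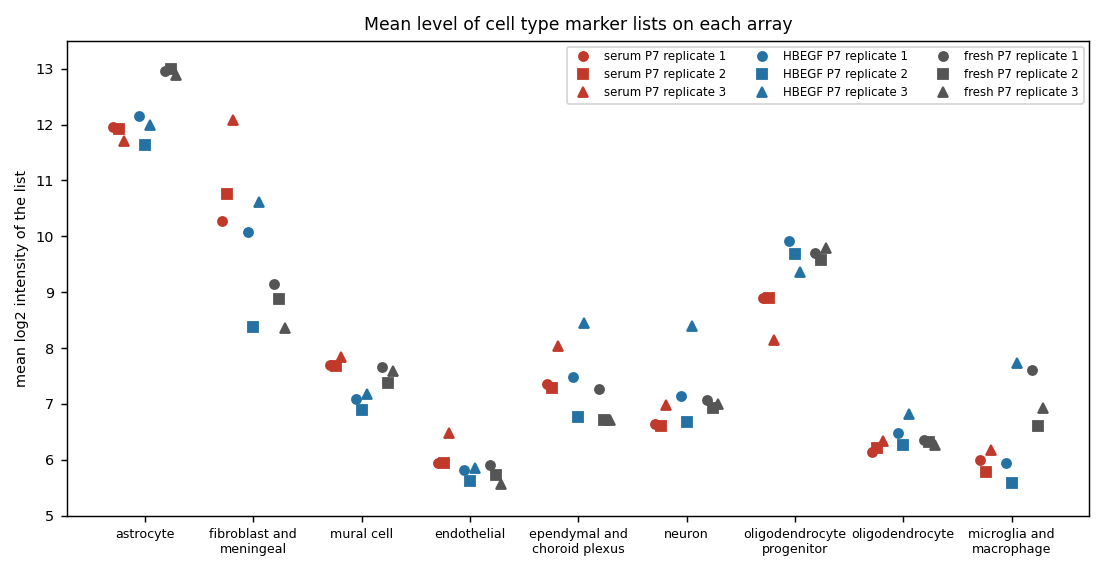
Mean log2 intensity of 9 lists of cell type markers on each array, with serum P7, HBEGF P7 and fresh P7 arrays from left to right within a list. Circles, squares and triangles are replicates 1, 2 and 3. The fibroblast and meningeal list reads 10.28, 10.75 and 12.09 in serum P7 cultures, against 10.08, 8.38 and 10.62 in HBEGF P7 cultures and 9.15, 8.87 and 8.35 in fresh P7 cells, and the astrocyte list 11.95, 11.92 and 11.71, against 12.15, 11.63 and 11.99 and 12.95, 12.99 and 12.88 in the same order.

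Markers of the other cell types showed smaller or mixed differences. Of 14 mural cell markers, 4 rose and 1 fell (7.14%, against 9.04% of all genes; 2 fell without the third serum array), and the list mean was 7.70, 7.68 and 7.84 on the serum arrays, 7.08, 6.90 and 7.18 on the HBEGF arrays and 7.66, 7.37 and 7.59 on the fresh arrays. Its risen members Tagln (3.09), Acta2 (1.78) and Des are contractile genes too, while Rgs5, which defines pericytes, fell (-3.32). Of 18 endothelial markers, 3 rose (16.7%, against 9.12% of all genes) and 1 fell (5.56%, against 9.04%). Ocln (2.15), Kdr (2.0) and Eng (1.88) rose, and the tight junction gene Cldn5 (-1.81) fell. The endothelial list mean was 5.95, 5.95 and 6.48 on the serum arrays, against 5.9, 5.72 and 5.56 on the fresh arrays. Of 22 microglia and macrophage markers, 7 fell and 1 rose, with a list mean of 5.99, 5.78 and 6.18 on the serum arrays, 5.95, 5.59 and 7.73 on the HBEGF arrays and 7.60, 6.61 and 6.92 on the fresh arrays. The third HBEGF array and the first fresh array were the highest, and 20 members lay below the median of all values in serum P7 cultures, against 12 in fresh P7 cells. Tyrobp (-2.59), Csf1r (-2.57) and Fcer1g (-2.83), which define these cells, fell, and Tmem119 rose (2.95), a gene that microglia share with osteoblasts and stromal cells. The part of these cells in the fall of chemokines and of Il1b was not tested.

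Markers of the neural lineage were read in the same way. Of 9 oligodendrocyte progenitor markers, 5 fell, 3 without the third serum array, and 1 rose (11.1%, against 9.12% of all genes), Pdgfra. Olig1 read 12.32, 12.21 and 8.5 on the serum arrays, against 12.90, 13.20 and 13.49 on the fresh arrays. The third serum array set its change of -2.18, which was -0.93 and not called without that array, and was not called without any 1 fresh array either. Nkx2-2 (-2.88) and Lhfpl3 (-2.71) fell, and Sox10, which all cells of this lineage carry, changed by 0.12 and was not called. Of 14 oligodendrocyte markers, 1 rose, Cldn11 (3.65), and 1 fell, Gpr37 (-3.10), each 7.14% of the list, against 9.12% and 9.04% of all genes. Of 27 neuron markers, 8 fell (29.6%, against 9.04% of all genes) and 3 rose (11.1%, against 9.12%). The list mean was 6.64, 6.61 and 6.98 on the serum arrays, 7.15, 6.68 and 8.40 on the HBEGF arrays and 7.07, 6.92 and 7.00 on the fresh arrays. Stmn2, a tubulin-binding protein of growing neurites, read 11.20, 11.92 and 9.80 in serum P7 cultures, 9.38, 6.61 and 12.02 in HBEGF P7 cultures and 7.15, 5.54 and 6.08 in fresh P7 cells, a change of 4.71, and it went up while Snap25 (-2.24) and Elavl4 (-2.79) fell. Of 13 ependymal and choroid plexus markers, 2 rose, 4 in a fit on the serum and fresh arrays alone. They were led by the water channel Aqp1 (4.04). Otx2 (-1.27) was the 1 member that fell (7.69%, against 9.04% of all genes), a call lost without the third fresh array. Ttr, of choroid plexus, read 8.49, 7.20 and 12.10 on the serum arrays, against 9.72, 8.74 and 8.39 on the fresh arrays and was not called, with the third serum array the highest.

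The remaining genes among the 15 largest rises were Scn7a (6.31), a sodium channel that senses salt in glia, Ntng1 (6.02), a netrin bound to the membrane, Gda (5.88), guanine deaminase, Upk1b (5.35), a tetraspanin of epithelia, Scara5 (5.32), a ferritin receptor, and Prrx2 (5.27), a homeobox factor of mesenchyme. Scn7a read 13.12, 12.88 and 11.23 in serum P7 cultures, 12.62, 10.80 and 12.70 in HBEGF P7 cultures and 6.64, 5.30 and 6.37 in fresh P7 cells. Its serum and fresh arrays did not overlap. Every one of the 15 largest rises and 15 largest falls was still called with any 1 serum or fresh array left out. They were picked for large changes on these same arrays, so this is no independent support.

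The genes that differed most between both kinds of culture were taken among those also called against fresh P7 cells. Higher in serum P7 cultures than in HBEGF P7 cultures were, after Tnn (7.29) and Hspb1, Krt19, Thrsp and Thy1 given above, Ccn3 (4.37), a matricellular protein, Gda (4.33), Inmt (4.03), a methyltransferase, Sgk1 (4.02), a kinase that glucocorticoids and serum induce, and Agtr1a (4.01), an angiotensin receptor. Sgk1 read 12.52, 12.61 and 13.13 in serum P7 cultures, against 8.28, 8.70 and 9.24 in HBEGF P7 cultures. All serum arrays were above all HBEGF arrays, a difference of 4.02 ± 0.29 (SE; adjusted p = 2.09e-07). Lower than in HBEGF P7 cultures were, after Spon1, Olfm3, Rlbp1, Itih3, Sox3 and Ntm, the genes Lhfpl3 (-3.98), Miat (-3.71), a long noncoding RNA, Smoc1 (-3.41), a calcium-binding matrix protein, and Slc24a3 (-3.38), a sodium and calcium exchanger. Each of these 20 genes was still called with any 1 serum or HBEGF array left out, which their selection on the same arrays made likely.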

How the data were processed

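RNA of panned and cultured astrocytes was hybridised to Affymetrix rat genome arrays. The authors deposited an intensity for each probe set on each array, computed with RMA according to the submitters' processing notes (per the labels), on the linear scale (10.0 to 37801, array medians 128 to 146). Which RMA software they ran is not given in the sources used here. For this report log2 of the deposited intensity was taken. Of 31042 probe sets, 20826 carried 1 gene symbol, 436 several and 9780 none, and each of 14217 genes was read through the probe set whose mean over the 21 arrays was highest.

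Groups were compared with limma 3.58.1 in R 4.3.3 (lmFit, contrasts.fit, eBayes; 7 group means, 14 residual and 2.89 prior degrees of freedom), and lists were counted with pandas 2.3.3 in Python 3.11.15. Adjusted p-values are Benjamini-Hochberg over all probe sets. Having 3 arrays a group limits the precision, and the smallest two-sided p of an exact permutation test is 0.1. No file says whether replicates came from separate animals, so p-values measure the spread between these arrays. On simulated data for serum P7 cultures against fresh P7 cells, 200 of 31042 probe sets were changed, 50 per size. Changes of 1.5 log2 were recovered in 84% of cases, of 2 in 94%, of 3 in 100% and of -1.5 in 90%, with 3 false calls. In the data, 5915 of 14217 genes had an adjusted p under 0.05. The simulated shares and false calls therefore do not carry over to the calls in the data.

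The members and the 41 gene lists (1130 entries, 1029 measured) were chosen with earlier results of these data known. A rule set the genes named: the 15 strongest rises and falls each way without overlap of arrays, up to 5 called members a direction and the 3 brightest not called in each list, 10 genes of astrocytes and the panning, and the 10 highest and 10 lowest against HBEGF P7 cultures; exceptions are marked in the text. Replicate numbers gave no clear sign of pairing: deviations of same-numbered serum and fresh arrays correlated at -0.102, -0.085 and -0.125. Those of same-numbered serum and HBEGF arrays correlated at -0.064, 0.147 and 0.222, against -0.221 to 0.222 for differently numbered ones. With 3 arrays a group, these values cannot show that the arrays were unpaired. Alternatives were another scaling, offset, probe set choice, fold limit, filter, variance prior and set of arrays.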

Additional observations from a re-analysis of the deposited data

How the results depend on the processing

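With 1 array left out in turn, between 1171 and 1340 genes rose and between 1196 and 1362 fell against fresh P7 cells, and between 548 and 817 were higher and 566 to 722 lower than in HBEGF P7 cultures. Members of the lists came to 214 rises and 197 falls against fresh P7 cells (201 to 218 and 182 to 199 with 1 array left out), and 161 and 61 against HBEGF P7 cultures (128 to 180 and 49 to 67). Of all 2581 calls against fresh P7 cells, 2011 were kept with every 1 array left out, and of 277 called genes among the 393 named, 27 were lost with some array. A fold limit of 1.5-fold gave 2233 rises and 2193 falls against fresh P7 cells, and 1160 and 1430 against HBEGF P7 cultures, as its construction makes it. A fit on the compared groups only gave 400 higher and 362 lower than in HBEGF P7 cultures and 97 and 23 list members there, against 1259 and 1283 genes in the comparison with fresh P7 cells; that fit has fewer arrays to estimate the spread from. The replicate block gave 1311 rises and 1298 falls against fresh P7 cells, 2579 of the calls shared. Against HBEGF P7 cultures it gave 708 and 646. Whether the replicate numbers pair the arrays is not known. Subtracted array medians gave 1399 and 1210, quantile normalization 1378 and 1211, the dim probe sets left out 989 and 1078 of 9521 genes, and an offset of 32 gave 1099 and 1118. No named gene changed direction while called under any alternative run. Low intensities compress changes, so genes near the bottom of the scale have understated folds.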

Other observations

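Of 10216 probe sets without 1 gene symbol, 450 were called higher and 981 lower in serum P7 cultures than in fresh P7 cells, and 243 higher and 477 lower than in HBEGF P7 cultures. Over all probe sets, serum P7 arrays correlated with arrays of serum-grown P7 cells titled as withdrawn at a Spearman rho of 0.958 to 0.981. The rho was 0.927 to 0.964 with McCarthy and de Vellis cultures in serum. It was 0.93 to 0.962 with HBEGF P7 cultures and 0.909 to 0.931 with fresh P7 cells.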
